A study of Mus musculus with 43 samples.

Results

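The mRNAs of 7 proteins that move chloride and sodium across airway epithelium were followed in mouse lung: the chloride channels Cftr and Ano1, the chloride transporter and channel Slc26a9, the chloride uptake cotransporter Slc12a2, and the epithelial sodium channel (ENaC) subunits Scnn1a, Scnn1b and Scnn1g. They were chosen by symbol, matched to Entrez gene IDs, and are 7 of the 24475 IDs in the deposited table. All 7 had enough counts to be tested. RNA came from whole lung of mice homozygous for a humanised Il33 allele (Il33hu/hu), bred on C57BL/6NTac (75%) crossed to 129S6SvEvTac (25%), and every group shared this allele and strain. The groups were saline (7 libraries, with no time in the labels), house dust mite (HDM, an airway allergen) for 4 weeks (10 libraries), HDM for 15 weeks without antibody (7), HDM for 15 weeks with an isotype control antibody (4) and HDM for 15 weeks with an antibody against IL-33 (15). IL-33 is an alarmin cytokine released from barrier cells. Because saline has no time label, age and time in the study cannot be told apart from HDM in any contrast with saline. Between 15 and 4 weeks of HDM they cannot be told apart from length of exposure either.

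The liquid film on the airway surface is set by the balance of chloride secretion and sodium absorption. Chloride enters epithelial cells from the blood side through the sodium-potassium-chloride cotransporter NKCC1 (Slc12a2) and leaves on the air side through CFTR, the cAMP-regulated channel mutated in cystic fibrosis, through ANO1 (TMEM16A), a calcium-activated channel, and through SLC26A9. Sodium is taken up from the air side through ENaC, which is built of alpha, beta and gamma subunits (Scnn1a, Scnn1b, Scnn1g), and is pumped out on the blood side by the sodium-potassium ATPase. In lung, ENaC also serves fluid clearance from the alveoli, and mice that overexpress Scnn1b in the airways are an established model of airway surface dehydration.

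Library totals ranged from 4795214 to 12599467 counts, and the 7 genes had between 60 and 5644 counts per library. Levels are counts-per-million (CPM) after TMM scaling, given as mean ± SD over libraries. The sample numbers in the labels fall into 2 separate ranges, with libraries of every group in each, and the fit held a term for them. The labels give no replicate numbers, and those used here follow the order of the sample numbers within each group. Of the 2 saline libraries put in range 1, replicate 1 has a number that stands apart from the rest of that range, and all values of the 7 genes against saline kept their direction and call without it. Replicate 1 of 15 weeks without antibody stood apart, with a TMM factor of 0.69 and a median correlation of 0.92 with its group, as did replicate 3 of 4 weeks, with a median correlation of 0.92. Where leaving either out changed a call of the 7 genes, both values are given. In RNA from whole lung, fewer cells of a type and less RNA per cell cannot be told apart.

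Per kilobase of exon in saline lung, Scnn1a was the most abundant of the 7 mRNAs, at 90.5 ± 12 CPM per kb. Scnn1g (51.3 ± 6.39 CPM per kb) and Scnn1b (48.0 ± 6.43 CPM per kb) followed and did not differ beyond their spread. Ano1 (28.5 ± 2.04 CPM per kb) and Slc12a2 (28.3 ± 2.01 CPM per kb) came next and likewise lay within each other's spread. Slc26a9 stood at 12.2 ± 1.23 and Cftr at 2.56 ± 0.46 CPM per kb. After 15 weeks of HDM without antibody the order changed below Scnn1a: Slc12a2 was second at 28.6 ± 3.88 CPM per kb, and Scnn1b (20.8 ± 2.97), Ano1 (19.4 ± 4.197), Scnn1g (18.4 ± 3.09) and Slc26a9 (18.2 ± 3.91 CPM per kb) were within their spread of one another. Cftr was lowest of the 7 in all 5 groups.

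**Figure D1:**
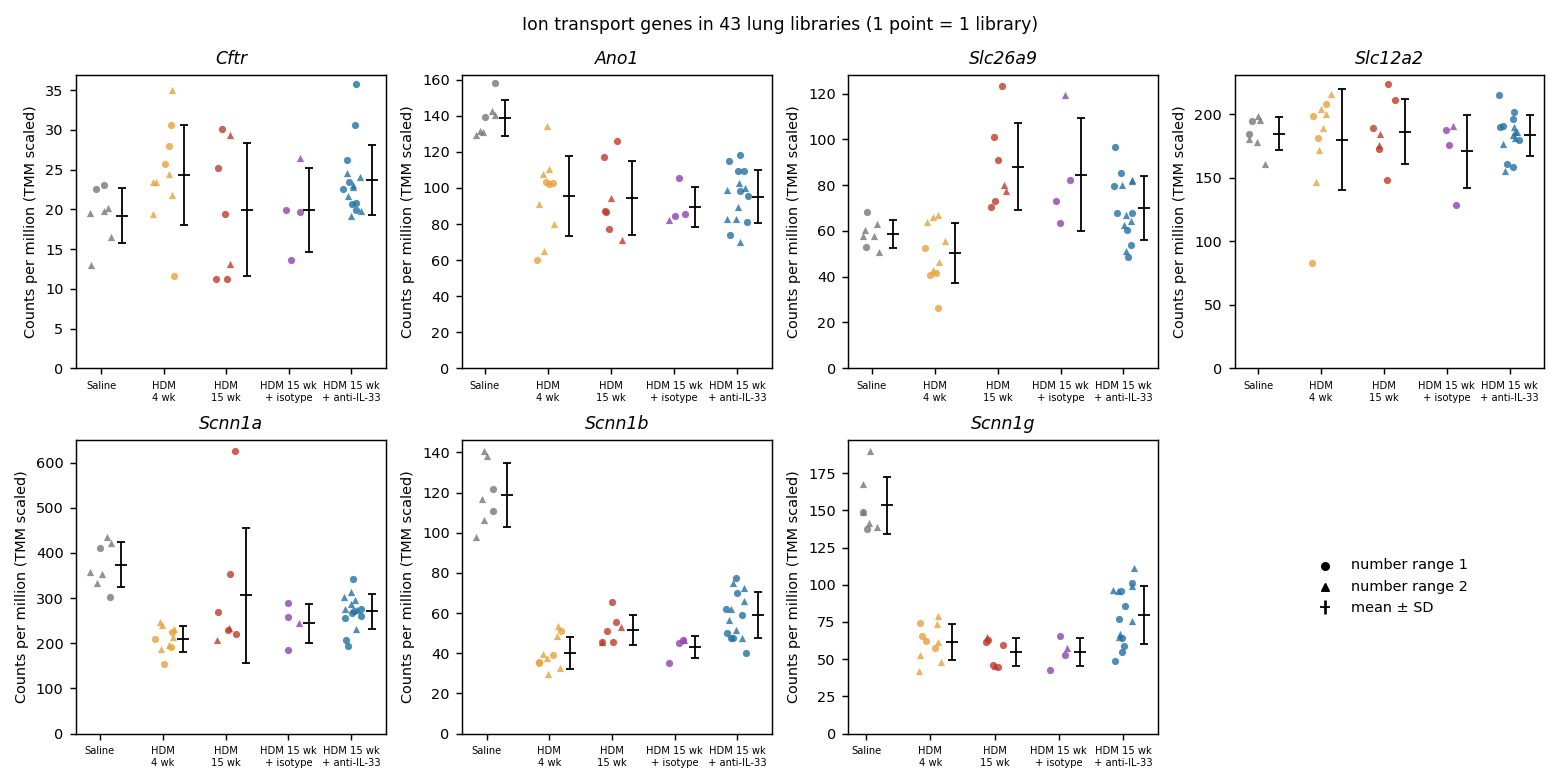
CPM (TMM scaled, linear axis from 0) of each of the 7 genes by group. Each point is a library (circles number range 1, triangles number range 2) and the bar is mean ± SD. Scnn1b and Scnn1g are lower in every HDM library than in every saline library, Slc12a2 overlaps throughout, and 1 library at 15 weeks carries Scnn1a at 627 CPM.

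The first question was how the mRNAs for sodium uptake differed between HDM and saline lungs. At 4 weeks all 3 ENaC subunit mRNAs were lower than in saline. Scnn1b and Scnn1g were also lower at 15 weeks, while Scnn1a did not pass the test there. Of the 7 genes, 4 were lower and none higher at 4 weeks, where 27.5% of all 15598 tested genes were called lower and 29.3% higher (edgeR quasi-likelihood test, Benjamini-Hochberg adjusted p under 0.05). No member was higher at an unadjusted p under 0.05 either, and DESeq2 also called 0 higher and 4 lower. At 15 weeks 3 were lower and 1 higher, where 28.1% of genes were called lower and 31.2% higher. The median log2 fold change of the 7 was -0.55 at 4 weeks and -0.28 at 15 weeks, against 0.01 at both times over all genes tested. The 2 comparisons share the saline libraries.

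Scnn1b encodes the beta subunit of ENaC. In saline it ranged from 98.1 to 141 CPM with a median of 117. At 4 weeks it ranged from 29.8 to 53.4 CPM with a median of 38.4, and at 15 weeks from 45.4 to 65.5 CPM with a median of 51.1. All 10 libraries at 4 weeks and all 7 at 15 weeks lay below every saline library. The log2 fold change was -1.56 ± 0.12 (SE, adjusted p = 4.04e-13 by edgeR) at 4 weeks, a level of 0.339 times saline, and -1.18 ± 0.14 (adjusted p = 4.52e-09 by edgeR) at 15 weeks. Within number ranges 1 and 2 the value was -1.52 and -1.56 at 4 weeks, and -1.14 and -1.27 at 15 weeks.

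Scnn1g encodes the gamma subunit. Its saline libraries ranged from 138 to 190 CPM with a median of 149. At 4 weeks the range was 42 to 78.8 CPM with a median of 62.1, and at 15 weeks 44.5 to 65.2 CPM with a median of 59.4. Again no HDM library reached the saline range. The log2 fold change was -1.30 ± 0.14 (SE, adjusted p = 1.09e-09 by edgeR) at 4 weeks and -1.44 ± 0.16 (adjusted p = 1.77e-09 by edgeR) at 15 weeks.

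Scnn1a, the alpha subunit that the channel needs for its activity, ranged from 303 to 435 CPM in saline with a median of 358. At 4 weeks it ranged from 153 to 247 CPM with a median of 211, so that all 10 libraries lay below every saline library. The log2 fold change was -0.83 ± 0.15 (SE, adjusted p = 1.29e-05 by edgeR). Within number range 1 it was -0.86 but not called (adjusted p = 0.0654 by edgeR), and within number range 2 it was -0.78 (adjusted p = 2.98e-06 by edgeR). At 15 weeks its libraries ranged from 208 to 627 CPM with a median of 233. There 5 of 7 lay below every saline library and 1, replicate 1, lay above them all. The log2 fold change at 15 weeks was -0.28 ± 0.17 (SE, adjusted p = 0.158 by edgeR), with a 95% interval from -0.62 to 0.07. Without that library it was -0.53, with an adjusted p of 0.000535 by edgeR, so this one library decided the call. Within number range 1, which holds it, the value at 15 weeks was -0.06 (adjusted p = 0.893 by edgeR), and within number range 2 it was -0.77 (adjusted p = 0.000218 by edgeR).

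The balance among the subunit mRNAs was read from their ratios. Per kilobase, the ratio of Scnn1b to Scnn1a had a median of 0.539 in saline (0.461 to 0.608), 0.292 at 4 weeks (0.264 to 0.554) and 0.343 at 15 weeks (0.174 to 0.386). The ratio of Scnn1g to Scnn1a had a median of 0.586 in saline (0.487 to 0.648), 0.414 at 4 weeks (0.308 to 0.589) and 0.300 at 15 weeks (0.138 to 0.386). No library at 15 weeks reached the saline range in either ratio, and replicate 1 was the lowest in both. Replicate 3 of 4 weeks was the highest of its group in both, and without it the 4-week ratios reached only 0.385 and 0.471, below the saline range. The ratio of Scnn1b to Scnn1g had a median of 0.805 (0.633 to 0.940) at 4 weeks and 1.19 (0.983 to 1.26) at 15 weeks without antibody. These ranges do not overlap. At 15 weeks with the isotype the median was 0.981 (0.855 to 1.02), and with anti-IL-33 it was 0.921 (0.773 to 1.05). Both of those ranges overlap that of 4 weeks. In saline the ratio was 0.907 (0.838 to 1.12). These ratios were formed after the levels had been seen and are given without a test.

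**Figure D2:**
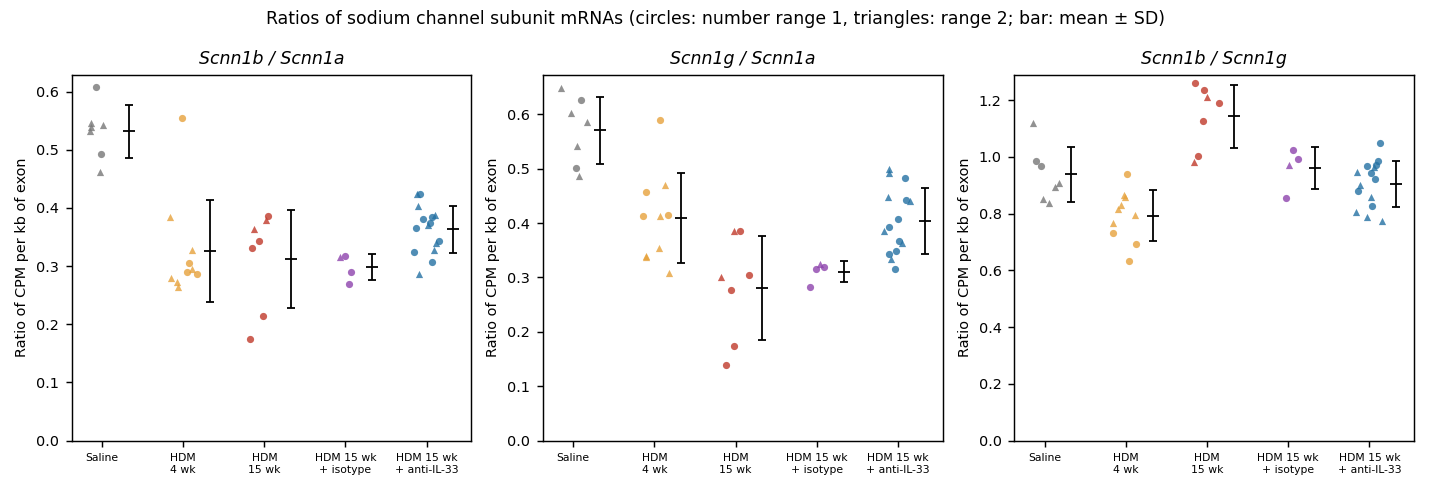
Ratios of the CPM per kb of exon of ENaC subunit mRNAs (linear axis from 0) by group, with each point a library and the bar mean ± SD. The ratio of Scnn1b to Scnn1a has a median of 0.539 in saline and 0.292 to 0.371 in the 4 HDM groups.

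Scnn1b and Scnn1g are neighbours. RefSeq places Scnn1g at chr7:121734420-121768482 and Scnn1b at chr7:121865038-121918728, both on the plus strand of GRCm38.p6 and 96.6 kb apart, while Scnn1a lies on another chromosome (chr6:125314271-125344943, plus strand). Because the 2 neighbours moved together, the bases directly before each gene are shown, from the RefSeq promoter table, with those of Slc26a9, the one gene of the 7 that was higher at 15 weeks, for contrast. The table held 5 of the 7 genes. Capitals mark every match, on either strand, to any of 9 motifs: those of STAT6 and NF-kB, TTCNNNGAA (other STAT factors), TGANTCA (AP-1), TGTTCT (part of the glucocorticoid receptor element), TTGCNNCAA (C/EBP), TGTTTNC (forkhead factors), GGGCGG (SP1) and TATAAA (the TATA box).
Scnn1b, chr7:121864788-121865037: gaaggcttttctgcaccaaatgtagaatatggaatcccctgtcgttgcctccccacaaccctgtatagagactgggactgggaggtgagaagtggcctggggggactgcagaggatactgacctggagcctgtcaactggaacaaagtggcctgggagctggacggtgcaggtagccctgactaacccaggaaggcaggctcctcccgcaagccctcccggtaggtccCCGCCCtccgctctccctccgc
Scnn1g, chr7:121734229-121734419: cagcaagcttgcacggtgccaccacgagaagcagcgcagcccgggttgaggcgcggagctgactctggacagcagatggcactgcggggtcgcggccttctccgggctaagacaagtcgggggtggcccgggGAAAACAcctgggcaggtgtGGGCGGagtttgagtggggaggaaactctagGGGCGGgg
Slc26a9, chr1:131743772-131744021: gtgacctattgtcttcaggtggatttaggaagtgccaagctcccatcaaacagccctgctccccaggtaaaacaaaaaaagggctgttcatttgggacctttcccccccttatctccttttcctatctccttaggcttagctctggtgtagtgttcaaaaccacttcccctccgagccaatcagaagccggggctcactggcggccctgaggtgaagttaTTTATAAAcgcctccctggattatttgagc
The printed run is 250 bases for Scnn1b and Slc26a9, and 191 bases for Scnn1g, whose gene span begins inside the tabulated window. Scnn1b held 1 SP1 match, Scnn1g held 2 SP1 matches and 1 forkhead match, and Slc26a9 held 2 overlapping TATA box matches, 1 on each strand, that begin 30 and 28 bases before the gene. Of 32851 mouse promoter windows of 250 bases, 32.7% held the SP1 motif, 17.8% the forkhead motif and 12.4% the TATA motif. The 3 stretches held no match to the other 6 motifs, which stood in 5.85% (STAT6), 7.02% (other STAT factors), 1.21% (NF-kB), 6.75% (AP-1), 16.1% (glucocorticoid receptor) and 1.74% (C/EBP) of all windows. A match is a description of the letters, and its absence says only that they are not in this window. G and C made up 60.8% of the Scnn1b stretch, 67.0% of that of Scnn1g and 50.0% of that of Slc26a9, against a median of 52.4% over all windows.

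The next question concerned the mRNAs for chloride exit. Ano1 was lower after HDM at both times, Slc26a9 was higher at 15 weeks, and Cftr did not pass the test at either time. Ano1 (chr7:144588549-144752026, minus strand) ranged from 129 to 158 CPM in saline with a median of 139, from 60.1 to 134 CPM at 4 weeks with a median of 102, and from 71.0 to 126 CPM at 15 weeks with a median of 87.2. Of the 4-week libraries 9 of 10 lay below every saline library, and at 15 weeks 7 of 7 did. Its log2 fold change was -0.55 ± 0.12 (SE, adjusted p = 0.000246 by edgeR) at 4 weeks and -0.61 ± 0.14 (adjusted p = 0.000273 by edgeR) at 15 weeks. ANO1 is also made outside the epithelium, in smooth muscle among others. Of 10 smooth muscle and pericyte markers, 7 were higher and none lower at 4 weeks, and 1 was higher and 1 lower at 15 weeks. Their part in the Ano1 values was not tested. A long non-coding RNA gene, D930030F02Rik, overlaps the Ano1 span. The library kit keeps strand, but the sources used here do not give the strand setting of the counting.

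Slc26a9 (chr1:131744022-131771504, plus strand) encodes a chloride transporter and channel that works beside CFTR. It ranged from 50.9 to 68.4 CPM in saline with a median of 57.7, from 26.2 to 67.0 CPM at 4 weeks with a median of 49.6, and from 70.3 to 123 CPM at 15 weeks with a median of 80.0. All 7 libraries at 15 weeks lay above every saline and every 4-week library. At 15 weeks its log2 fold change against saline was 0.65 ± 0.17 (SE, adjusted p = 0.00101 by edgeR), or 1.56-fold. The value was 0.56 without replicate 1, which was the highest at 123 CPM. Within number range 1 it was 0.60 (adjusted p = 0.100 by edgeR) and within number range 2 it was 0.46 (adjusted p = 0.0399 by edgeR). At 4 weeks the log2 fold change was -0.21 ± 0.15 (SE, adjusted p = 0.215 by edgeR), with a 95% interval from -0.51 to 0.08.

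Cftr (chr6:18170687-18322770, plus strand) had the fewest counts of the 7, from 60 to 381 per library. It ranged from 12.995 to 23.1 CPM in saline, 11.7 to 34.96 CPM at 4 weeks and 11.2 to 30.1 CPM at 15 weeks, and the groups overlapped. Its log2 fold change was 0.34 ± 0.18 (SE, adjusted p = 0.103 by edgeR) at 4 weeks, with 7 of 10 libraries above every saline library and 1 below them all. That one was replicate 3, at 11.7 CPM. Without it the value was 0.43 (adjusted p = 0.0315 by edgeR), so the call at 4 weeks depended on this library. Within number range 1, which holds it, the value was 0.09, and within number range 2 it was 0.48 (adjusted p = 0.0227 by edgeR). At 15 weeks the log2 fold change was 0.04 ± 0.20 (SE, adjusted p = 0.888 by edgeR), with a 95% interval from -0.37 to 0.45.

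Slc12a2, on chromosome 18, stands for chloride uptake and had the smallest fitted change of the 7 at both times. It ranged from 161 to 198 CPM in saline with a median of 185, from 82.8 to 216 CPM at 4 weeks with a median of 194, and from 148 to 224 CPM at 15 weeks with a median of 184. The lowest value was again in replicate 3 of 4 weeks. The log2 fold change was -0.03 ± 0.11 (SE, 95% interval -0.26 to 0.19) at 4 weeks and 0.02 ± 0.13 (95% interval -0.23 to 0.28) at 15 weeks. Neither interval reaches the fitted falls of Scnn1a, Scnn1b, Scnn1g or Ano1 at 4 weeks.

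**Figure D3:**
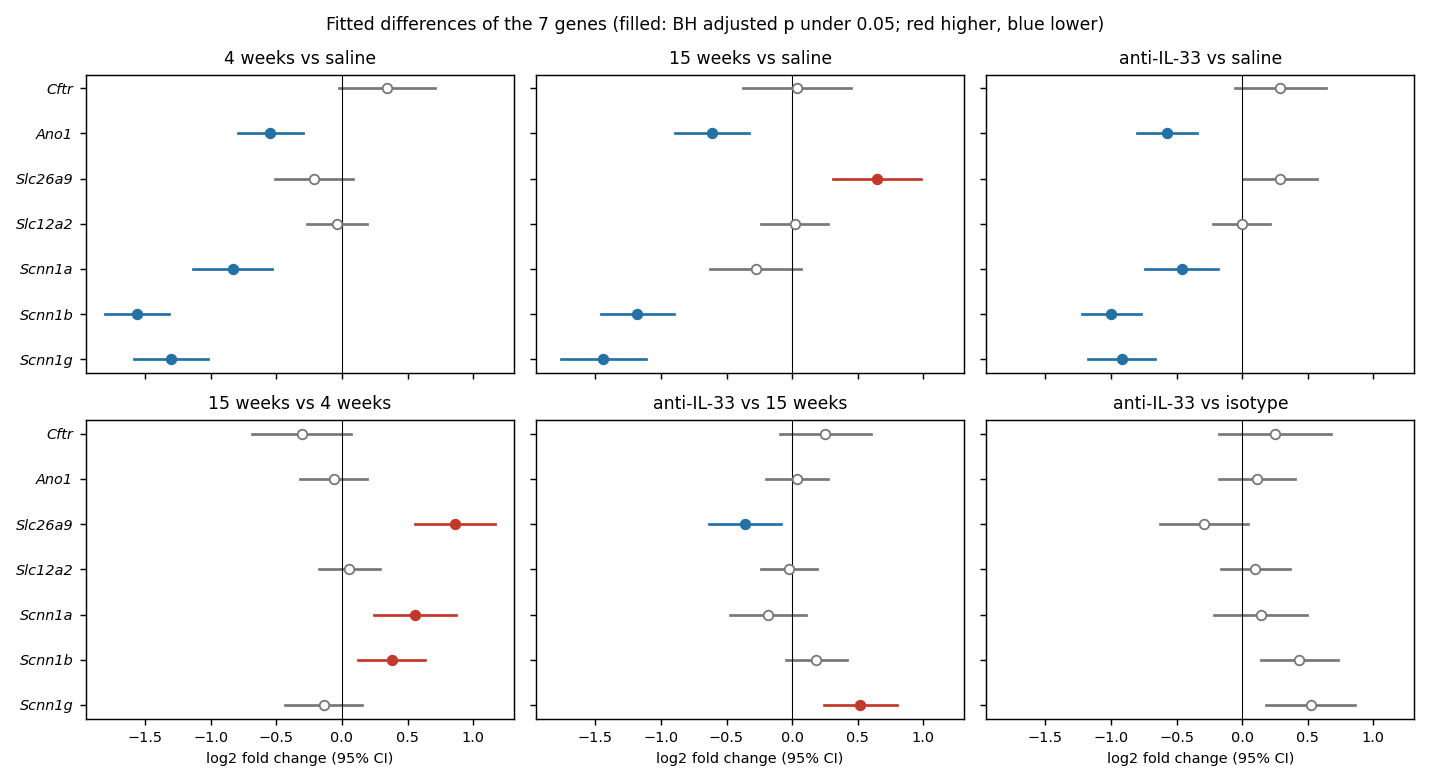
Fitted log2 fold changes of the 7 genes in 6 comparisons, with 95% intervals. Filled points have an adjusted p under 0.05 (red higher, blue lower). Scnn1b lies at -1.56, -1.18 and -0.997 in the 3 comparisons with saline, while all 7 points are open in the comparison of anti-IL-33 with isotype.

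Longer exposure was then compared with shorter. Between 15 and 4 weeks 3 of the 7 genes were higher (12.3% of all genes were called higher) and none was lower (9.08% were called lower). No member was lower at an unadjusted p under 0.05, and DESeq2 called the same numbers in each direction. Slc26a9 was higher by 0.86 ± 0.15 on the log2 scale (SE, adjusted p = 0.000141 by edgeR), and by 0.76 without replicate 1 of 15 weeks and 0.77 without replicate 3 of 4 weeks. The difference was 1.18 in number range 1, where 4-week libraries averaged 40.2 CPM, and 0.47 (adjusted p = 0.219 by edgeR) in number range 2, where they averaged 57.0 CPM. Scnn1a was higher by 0.55 ± 0.16 (SE, adjusted p = 0.00921 by edgeR), and Scnn1b by 0.38 ± 0.13 (adjusted p = 0.0269 by edgeR). Without replicate 1 of 15 weeks these were 0.29 (adjusted p = 0.0659) and 0.31 (adjusted p = 0.0730 by edgeR), and neither was called. Scnn1g was not called, with a log2 fold change of -0.14 ± 0.15 (SE, 95% interval -0.43 to 0.16).

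Antibody treatment was read against the isotype control, against 15 weeks without antibody and against saline. The 4 isotype libraries held Scnn1b at 44.9, 46.7, 35.1 and 46.5 CPM, Scnn1g at 52.9, 65.8, 42.7 and 57.8 CPM, and Scnn1a at 259, 288, 184 and 245 CPM. The 15 anti-IL-33 libraries ranged from 40.1 to 77.2 CPM for Scnn1b (median 58.8), from 49.1 to 111 CPM for Scnn1g (median 77.1) and from 195 to 343 CPM for Scnn1a (median 273). For Scnn1b 14 of 15 and for Scnn1g 10 of 15 lay above all 4 isotype libraries, and no library of the 15 lay below them. The log2 fold change was 0.44 ± 0.15 for Scnn1b (SE, 95% interval 0.14 to 0.73, adjusted p = 0.0574 by edgeR) and 0.52 ± 0.17 for Scnn1g (95% interval 0.18 to 0.86, adjusted p = 0.0512 by edgeR). None of the 7 genes was therefore called, in a comparison where 3.58% of all genes were called higher and 3.14% lower. At an unadjusted p under 0.05 these 2 genes were higher, and DESeq2 called both. They were also called without replicate 1 of 15 weeks and replicate 3 of 4 weeks together, with adjusted p-values of 0.0197 and 0.0224 by edgeR. Neither of those libraries is in the groups compared here. Of 12 alternatives, each gene was called in 4 and not in the other 8. The log2 fold changes ran from 0.35 to 0.48 for Scnn1b and from 0.43 to 0.63 for Scnn1g. Scnn1a had a log2 fold change of 0.14 ± 0.18 (SE).

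Among the chloride genes, Slc26a9 stood at 73.1, 82.3, 63.3 and 120 CPM in the isotype libraries and from 48.7 to 96.5 CPM with anti-IL-33 (median 67.9). Its log2 fold change was -0.29 ± 0.16 (SE, 95% interval -0.62 to 0.04). Ano1 was at 85.5, 106, 84.5 and 82.0 CPM with the isotype and from 69.9 to 118 CPM with anti-IL-33, a log2 fold change of 0.11 ± 0.14 (SE). Cftr was at 13.6, 19.9, 19.7 and 26.4 CPM against 19.2 to 35.7 CPM, and Slc12a2 at 129, 176, 188 and 191 CPM against 156 to 215 CPM. The groups overlapped for all 4 of these genes.

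Against 15 weeks without antibody, anti-IL-33 libraries had 1 gene higher (15.9% of all genes were called higher) and 1 lower (19.9% were called lower). Scnn1g was higher by 0.52 ± 0.14 on the log2 scale (SE, adjusted p = 0.00381 by edgeR), with 10 of 15 libraries above all 7, and by 0.55 without replicate 1 of 15 weeks. Slc26a9 was lower, with a log2 fold change of -0.36 ± 0.14 (SE, adjusted p = 0.0362 by edgeR). Without that replicate it was -0.26 (adjusted p = 0.154 by edgeR), and the call was lost. It was lost in 6 of the 9 alternatives run for this value. Within each number range alone neither gene was called, at 0.42 and 0.64 for Scnn1g and -0.39 and -0.18 for Slc26a9. Isotype libraries were also compared with 15 weeks without antibody: none of the 7 genes was called higher or lower there, and 0% of all genes were in either direction. None passed at an unadjusted p under 0.05, DESeq2 called none of the 7, and the log2 fold changes ran from -0.33 to 0.01. Over all genes, 933 had an unadjusted p under 0.05, and DESeq2 called 8.

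Anti-IL-33 libraries were below saline for 4 of the 7 genes (18.5% of all genes were called lower), with none higher (20% were called higher). At an unadjusted p under 0.05, 1 gene, Slc26a9, was higher, and DESeq2 called 0 higher and 4 lower. The log2 fold changes were -0.997 ± 0.11 for Scnn1b (SE, adjusted p = 4.39e-09 by edgeR), -0.92 ± 0.13 for Scnn1g (adjusted p = 3.34e-07 by edgeR), -0.57 ± 0.11 for Ano1 (adjusted p = 9.41e-05 by edgeR) and -0.46 ± 0.14 for Scnn1a (adjusted p = 0.00746 by edgeR). All 15 libraries were below every saline library for Scnn1b, Scnn1g and Ano1, and 13 of 15 were for Scnn1a. Slc26a9 had a log2 fold change of 0.29 ± 0.14 (SE, adjusted p = 0.103 by edgeR). The per-kilobase ratio of Scnn1b to Scnn1a had a median of 0.371 with anti-IL-33 (0.287 to 0.425) and 0.303 with the isotype (0.270 to 0.317), both below the saline range. That of Scnn1g to Scnn1a was 0.393 (0.315 to 0.500) and 0.318 (0.282 to 0.326).

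How the 7 genes varied together among libraries of the same group was measured over 43 libraries after the group and number range means were removed, for 21 pairs. Scnn1b and Scnn1g had the highest correlation, with Pearson's r = 0.877 and Spearman's rho = 0.873 (both with an adjusted permutation p of 0.00021, from the smallest p that 100000 permutations can give). It was 0.845 without the 2 libraries farthest from the median, 0.875 in number range 1 and 0.902 in number range 2. Scnn1a followed Scnn1b less closely, with r = 0.544 and rho = 0.607 (adjusted permutation p = 0.000315 and 0.00021), r = 0.508 without 2 libraries, and 0.534 and 0.781 within the ranges. Scnn1g and Ano1 had r = 0.517 and rho = 0.599 (adjusted permutation p = 0.00496 and 0.00063), r = 0.407 without 2 libraries, and 0.366 and 0.877 within the ranges. Cftr and Slc12a2 had r = 0.612 and rho = 0.534 (adjusted permutation p = 0.0031 and 0.0021) and 0.523 without 2 libraries. That relation did not hold within both ranges: r was 0.804 in number range 1 and -0.09 in number range 2.

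**Figure D4:**
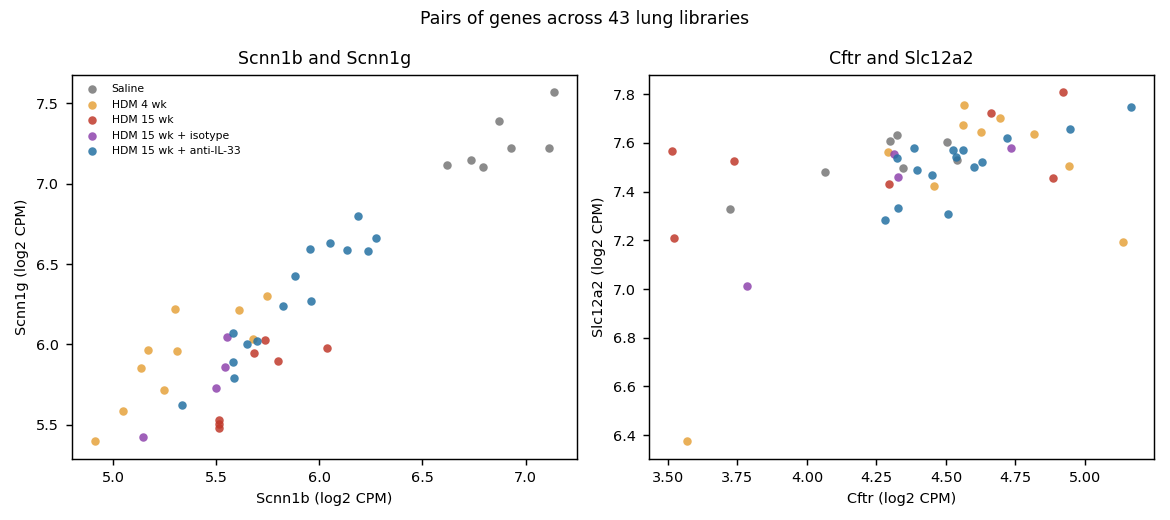
Log2 CPM of Scnn1b against Scnn1g, and of Cftr against Slc12a2, with each point 1 of 43 libraries coloured by group. Saline libraries form the upper right of the Scnn1b and Scnn1g plot, and the lowest point for Slc12a2 is replicate 3 of 4 weeks, at 82.8 CPM.

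The genes most like each member in those residuals were sought among 14438 tested genes that reached 1 CPM in some group, leaving out predicted and unnamed loci, as a description. Emp2, an epithelial membrane protein that was on the type I alveolar marker list, was the nearest gene to both Scnn1b (r = 0.881) and Scnn1g (r = 0.894). For each of these 2, the other was second. Scnn1a was most like Dab2ip (r = 0.896) and Shroom3 (r = 0.885), Ano1 was most like Myo5b (r = 0.887) and Cobl (r = 0.876), and Slc26a9 was most like Slc6a6 (r = 0.820). Cftr was most like Lyn (r = 0.846), a kinase of blood cells, and Slc12a2 was most like Osbpl11 (r = 0.897), with Tlr8 (r = 0.883) among its 5 nearest genes. Spearman's rho was lower for these, at 0.754 for Lyn, 0.773 for Osbpl11 and 0.762 for Tlr8. For Emp2 it was 0.885 with Scnn1b and 0.897 with Scnn1g.

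Genes that control ENaC and chloride secretion were taken from 8 lists, which held 104 tested genes besides the 7. Of these, 28 were higher and 38 lower at 4 weeks (26.9% and 36.5%, against 29.3% and 27.5% of all genes), and 40 were higher and 34 lower at 15 weeks (38.5% and 32.7%, against 31.2% and 28.1%). With so many genes called in either direction, the counts of the short lists are descriptions, and nothing particular to a list is read from them. Without replicate 1 of 15 weeks no list's count in either direction moved by more than 1 at 15 weeks. Among 11 tested proteases that cleave and open ENaC, their inhibitors and related proteins, 4 were higher and 3 lower at 4 weeks, and 7 were higher and 2 lower at 15 weeks. The serine protease Tmprss4 rose from 20.4 CPM in saline to 45.9 at 4 weeks and 55.8 CPM at 15 weeks, with log2 fold changes of 1.17 ± 0.13 and 1.46 ± 0.14 (SE). Plau (urokinase) rose by 1.22 ± 0.17 and 1.36 ± 0.19, and Hpn (hepsin) by 0.64 ± 0.19 and 1.31 ± 0.22. Prss8 (prostasin) fell by 0.54 ± 0.15 on the log2 scale at 4 weeks and had a log2 fold change of -0.18 ± 0.17 at 15 weeks, which was not called. Without replicate 1 of 15 weeks it was -0.49 and called lower (adjusted p = 0.000146 by edgeR). Bpifa1 (SPLUNC1), a secreted inhibitor of ENaC, averaged 27.1 CPM in saline, 4.76 at 4 weeks and 2.98 at 15 weeks, and was called lower at both times. Of the 11, 2 were lower with anti-IL-33 than with the isotype, Plau by -0.67 ± 0.18 and Tmprss4 by -0.43 ± 0.13.

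Of 12 tested genes for hormone and ubiquitin control of ENaC, 2 were higher and 7 lower at 4 weeks, and 3 were higher and 5 lower at 15 weeks. Nedd4l, the ubiquitin ligase that removes ENaC from the membrane, fell by 0.68 ± 0.09 at 4 weeks and 0.57 ± 0.10 at 15 weeks on the log2 scale. Sgk1, the kinase that opposes it, rose by 0.62 ± 0.19 and 1.299 ± 0.21. The mineralocorticoid receptor gene Nr3c2 fell by 1.39 ± 0.24 and 1.11 ± 0.27, and the glucocorticoid receptor gene Nr3c1 by 0.62 ± 0.11 and 0.84 ± 0.12. Hsd11b2, which inactivates glucocorticoids, rose from 1.45 CPM in saline to 12.3 CPM at 15 weeks (3.02 ± 0.38), while Hsd11b1, which activates them, fell by 1.51 ± 0.18. With anti-IL-33 against isotype, Nr3c2 was higher (0.94 ± 0.30, adjusted p = 0.0474 by edgeR) and Hsd11b2 lower (-1.12 ± 0.34, adjusted p = 0.0409 by edgeR). Sgk1 was not called there (-0.04 ± 0.21).

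On the blood side, 14 genes of the sodium pump, its FXYD regulators and related exchangers were tested, of which 4 were higher and 4 lower at 4 weeks and 7 were higher and 4 lower at 15 weeks. Atp1b1, the pump's main beta subunit, rose from 266 CPM to 473 CPM at 15 weeks (0.76 ± 0.13) and was lower with anti-IL-33 than with the isotype (-0.48 ± 0.13). Fxyd4, a pump regulator, averaged 0.46 CPM in saline, 21 at 4 weeks, 13.3 at 15 weeks, 12.7 with the isotype and 1.91 CPM with anti-IL-33, and was called in each of 4 weeks against saline (5.43 ± 0.57), 15 weeks against saline (4.75 ± 0.60) and, for the antibody, its comparison with the isotype (-2.71 ± 0.45).

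Chloride secretion depends on anion exchangers, potassium channels that hold the driving force, and receptors that open the channels. Of 21 other anion transport genes 5 were higher and 7 lower at 4 weeks, and 5 were higher and 8 lower at 15 weeks. The largest change among the genes named from that list was in Slc26a4 (pendrin), a chloride-bicarbonate exchanger, which averaged 24.5 CPM in saline, 606 at 4 weeks, 513 at 15 weeks, 479 with the isotype and 142 CPM with anti-IL-33. Its log2 fold change was 4.51 ± 0.46 at 15 weeks and -1.84 ± 0.37 with anti-IL-33 against isotype (adjusted p = 0.00517 by edgeR). Slc4a5, a sodium-bicarbonate cotransporter, fell by 1.29 ± 0.21 at 15 weeks. Of 10 potassium channel genes 4 were higher and 2 lower at 4 weeks, and 4 were higher and 1 lower at 15 weeks. Kcnn4, a calcium-activated potassium channel, rose from 6.67 to 39.4 CPM at 15 weeks (2.53 ± 0.25), and Kcnq1, which works with cAMP-driven chloride secretion, from 21.1 to 39.9 CPM (0.92 ± 0.17).

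Of 23 genes for CFTR partners and for receptors that drive chloride secretion, 6 were higher and 8 lower at 4 weeks, and 10 were higher and 7 lower at 15 weeks. The ATP and UTP receptor P2ry2, which acts through calcium, rose from 10.1 to 58.7 CPM at 15 weeks (2.65 ± 0.24) and was lower with anti-IL-33 than with the isotype (-0.72 ± 0.22). The adenosine receptor Adora2b rose by 1.63 ± 0.21 at 15 weeks and was lower with anti-IL-33 (-0.74 ± 0.20). Of 7 genes for kinases that switch NKCC1 on, their helper Cab39 and a phosphatase that opposes them, 1 was higher and 4 lower at 4 weeks, and 2 were higher and 4 lower at 15 weeks. The one higher at 4 weeks was the phosphatase, Ppp1ca (0.40 ± 0.13), which was also higher at 15 weeks (0.71 ± 0.15, and 0.45 without replicate 1). The other one higher at 15 weeks was the kinase Wnk4 (0.88 ± 0.21), and Wnk4 was named after its values were seen. Wnk4 spread widely among the 15-week libraries, at 17.8 ± 10.8 CPM (mean ± SD), and only 3 of 7 lay above every saline library. Its fitted value is therefore not read as a shift of the whole group. Wnk1 fell by 0.66 ± 0.14 and Oxsr1 by 0.46 ± 0.07 at 15 weeks, while Stk39 (SPAK) was not called (0.16 ± 0.13). Of 6 aquaporin water channels 2 were higher and 3 lower at both times. Aqp5 fell by 0.68 ± 0.20 and Aqp1 by 0.86 ± 0.16 at 15 weeks, and Aqp3 rose by 1.41 ± 0.38. For Aqp5, 6 of 7 libraries lay below every saline library and 1 above them all, and for Aqp1 6 of 7 lay below. The summed aquaporin level was 999 CPM in replicate 1 of 15 weeks and at most 487 CPM in the others of its group. With anti-IL-33 against isotype, 1 aquaporin was called higher, Aqp4 (1.08 ± 0.32), and 1 lower, Aqp11 (-0.81 ± 0.24).

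**Figure D5:**
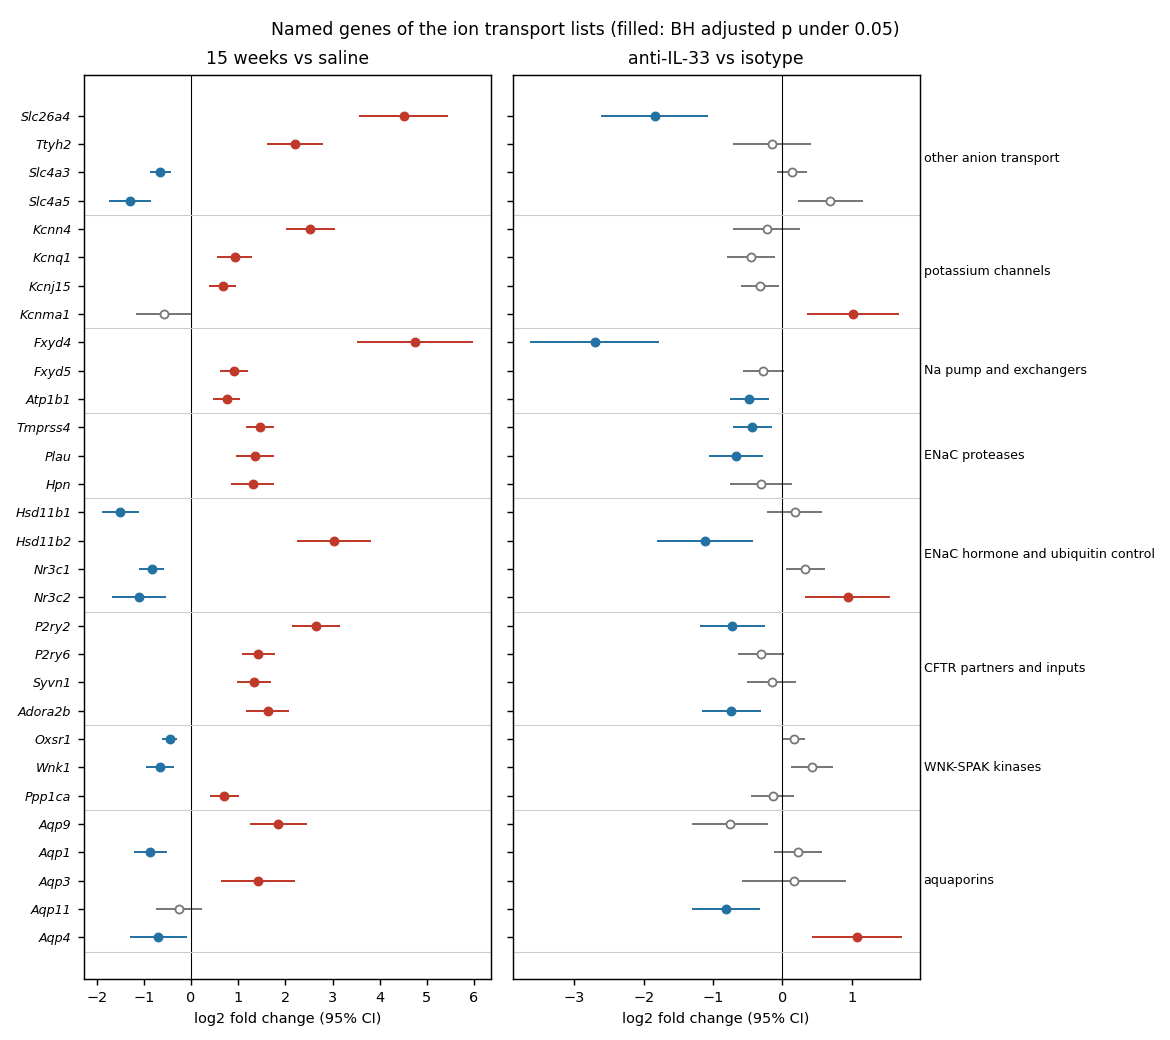
Log2 fold changes with 95% intervals of named genes from 8 ion transport lists, for 15 weeks minus saline and for anti-IL-33 minus isotype (filled: adjusted p under 0.05). Slc26a4 and Fxyd4 lie at 4.51 and 4.75 on the left and at -1.84 and -2.71 on the right.

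Markers of the epithelial cell types that carry these genes moved too. Of 9 general epithelial markers 2 were higher and 3 lower at 4 weeks, and 3 were higher and none lower at 15 weeks (3 higher and 2 lower without replicate 1), with Epcam at 53.5 CPM in saline, 69.5 at 4 weeks and 87.1 CPM at 15 weeks. The summed level of that list had a median of 1166 CPM in saline (1028 to 1291), 947 at 4 weeks (851 to 1407) and 999.96 CPM at 15 weeks (944 to 1932). The highest value at 15 weeks was that of replicate 1, and the other 6 libraries reached 1187 CPM, while the highest at 4 weeks was that of replicate 3, and the other 9 reached 1011 CPM. Type I alveolar markers were lower in 8 and 9 of 10 genes at 4 and 15 weeks, with summed levels from 6467 to 8240 CPM in saline, 3117 to 5265 CPM at 4 weeks and 2883 to 4422 CPM at 15 weeks. Club cell markers were lower in 7 of 9 genes at each time, and ciliated cell markers in 6 and 10 of 12 (9 at 4 weeks without replicate 3). Type II alveolar markers were higher in 6 and 10 of 10, with none lower (8 at 15 weeks without replicate 1). Goblet cell markers were higher in 11 and 8 of 12, with none lower, and their summed level had a median of 242 CPM in saline (101 to 1283), 2072 at 4 weeks (1208 to 3061) and 1017 CPM at 15 weeks (446 to 1923).

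Markers of other lung cells moved as well. Macrophage markers were higher in 8 and 9 of 9 genes at 4 and 15 weeks, with none lower, and their summed level was 2625 to 6589 CPM in saline, 11969 to 21762 CPM at 4 weeks and 17708 to 32060 CPM at 15 weeks. Endothelial markers were lower in 6 and 8 of 8 genes, with none higher, and their sum was 3419 to 4466 CPM in saline, 1824 to 3156 CPM at 4 weeks and 1339 to 2811 CPM at 15 weeks. Fibroblast markers were lower in 4 and 5 of 8 genes and higher in 1 at each time, and their sum was 2718 to 3420 CPM in saline, 1270 to 2185 CPM at 4 weeks and 1110 to 2413 CPM at 15 weeks. In these 3 lists no HDM library at either time reached the saline range. With anti-IL-33 against isotype, 2 type I, 3 club and 3 ciliated markers were higher and none lower, 2 fibroblast markers were higher and none lower, and 1 macrophage marker was lower and none higher, while no goblet or endothelial marker was called. The part of all these cell types in the values of the 7 genes was not tested. Ionocytes are rare airway cells that hold much of the Cftr mRNA of the airway surface. Of 12 ionocyte markers 9 were tested, 3 higher and 3 lower at 4 weeks (1 lower without replicate 3) and 3 higher and 4 lower at 15 weeks. Their summed level was 160 to 236 CPM in saline, 341 to 559 CPM at 4 weeks and 443 to 755 CPM at 15 weeks. Most of that sum after HDM was Atp6v0d2, a proton pump subunit named after its values were seen, which averaged 38.5 CPM in saline, 268 at 4 weeks and 408 CPM at 15 weeks. The defining factors Foxi1 and Ascl3 had too few counts to be tested.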

How the data were processed

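Strand-specific mRNA libraries of lung RNA (43) were deposited by the authors as 1 table of raw counts per Entrez gene ID, whole numbers with no normalization. The submitters' processing notes name the build GRCm38. The sources used here do not give the aligner, counter, annotation or strand setting. Of 24475 IDs 24375 were matched to symbols, and the unmatched ones hold 2.62% of all counts. The members and gene lists were chosen with earlier results of these data known.

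The counts were scaled by TMM and filtered with filterByExpr (15598 genes), and 1 edgeR quasi-likelihood model with terms for group and number range took in all libraries (R 4.3.3, edgeR 4.0.16). Adjusted p-values are Benjamini-Hochberg values over all genes tested, called under 0.05. Standard errors are the log2 fold change over the root of F. The procedure was run on simulated counts in which few genes changed and no library stood apart. These data differ in both, so that run does not bear on calls that hang on single libraries. Exon lengths are unions of the coding transcripts' exons in GENCODE vM21. Promoters are from RefSeq (GRCm38.p6). Correlations used 100000 two-sided permutations of libraries within groups.

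The named genes were all 7 members, 12 fixed names, and from each of 8 lists up to 3 genes with the smallest p at 15 weeks against saline and up to 2 for anti-IL-33 against isotype, among those reaching 1 CPM. Of the fixed names Foxi1, Ascl3 and Atp12a had too few counts. Some genes the rule names are not reported here. Nothing in the labels says that libraries are separate animals, so p-values measure the spread between samples. Alternatives were DESeq2 1.42.0, RLE size factors, no filter, no number range term, the number ranges taken singly, fits of only the groups being compared, and libraries left out. Leaving out either library that stands apart by itself, or saline replicate 1, was chosen after seeing the data.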

Additional observations from a re-analysis of the deposited data

Results flagged for a closer look

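Among the 28 sets of values checked (7 genes in the 4 groups of 4 to 10 libraries), 4 held a library far from the others by Dixon's test, and chance flags about 1 in 20. Scnn1a was at 627 CPM in replicate 1 of 15 weeks without antibody, above the other 6 libraries of its group. Slc12a2 was at 82.8 CPM in replicate 3 of 4 weeks, below the other 9. In the isotype group, replicate 3 was low for Scnn1b at 35.1 CPM and replicate 2 was high for Ano1 at 106 CPM.

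Levels at 15 and 4 weeks of HDM differed for 3 genes: Slc26a9 by 0.86, Scnn1a by 0.55 and Scnn1b by 0.38 on the log2 scale. The same saline libraries serve both times, so this is the direct contrast of the HDM groups given above. It does not separate length of exposure from age or time in the study. The differences of Scnn1a and Scnn1b were not called without replicate 1 of 15 weeks, at 0.29 and 0.31.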

How the results depend on the processing

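Of 511 values of the 7 genes under alternatives, 437 kept their direction and their side of the threshold, 22 fell short of it, 15 passed it and 37 changed sign, none of the last from a called value. The falls of Scnn1b and Scnn1g against saline held under every alternative run, as did that of Ano1 at 4 and 15 weeks. With RLE size factors all 49 values kept their direction and call. The cause of the changes below was not tested, beyond the fewer libraries that several alternatives hold. No paired analysis was possible because the labels give no replicate numbers or pairs.

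Against saline, the genes called at 4 weeks went from 8864 to 2308 in number range 1, at 15 weeks from 9235 to 4194, and with anti-IL-33 from 6015 to 578, where 2 rather than 4 of the 7 genes were called. For 15 against 4 weeks, 3334 became 1406 in number range 1, 149 in range 2 and 1206 with only those groups, and the 3 of the 7 genes became 1, 0 and 1, and 1 without replicate 1 of 15 weeks. For isotype against 15 weeks, 0 became 7 with no filter, 4 with no range term, 1 in range 2, 1 with 2 libraries left out and 8 with DESeq2, and 0 to 11 without each isotype library. For anti-IL-33 against isotype, 1047 became 687 with no filter, 297 in range 1, 1 in range 2, 4153 with only those groups, 4639 with 2 libraries left out and 1704 with DESeq2, and 58 to 935 without each isotype library. There the 0 of the 7 genes became 2 with no range term, 1 with only those groups, 2 with 2 libraries left out, 2 with DESeq2, and 0 to 1 without each isotype library. For anti-IL-33 against 15 weeks, 5588 became 3560 in range 1, 4 in range 2 and 3459 without replicate 1 of 15 weeks, and the 2 of the 7 genes became 1 with no range term, 0 in range 1, 0 in range 2, 1 with only those groups, 1 with 2 libraries left out and 1 without that replicate.

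The sign changes, as log2 fold changes, were all in uncalled values. Slc12a2 at 4 weeks against saline was 0.055 in range 2, 0.049 with 2 libraries left out and from -0.032 to 0.056 without saline replicate 1 or replicate 3 of 4 weeks. At 15 weeks against saline it was -0.0017 in range 1, -0.0073 in range 2 and -0.011 with only those groups, and Cftr was -0.24 in range 1. For 15 against 4 weeks Ano1 was 0.091 in range 1, and Slc12a2 was -0.062 in range 2, -0.0045 with 2 libraries left out and from -0.045 to 0.10 without either library that stands apart. For isotype against 15 weeks Cftr was -0.12 in range 1, -4.4e-05 with only those groups, -0.092 with 2 libraries left out, -0.091 without replicate 1 of 15 weeks and from -0.20 to 0.16 without each isotype library. Scnn1g there was 0.0012 with no filter, 0.066 in range 2, 0.0018 with only those groups, 0.045 with 2 libraries left out, 0.045 without replicate 1 of 15 weeks, and from -0.11 to 0.096 without each isotype library. In range 2 that comparison gave 0.15 for Scnn1a, 0.090 for Slc12a2 and 0.61 for Slc26a9, which was 0.046 with 2 libraries left out, 0.044 without replicate 1 of 15 weeks and from -0.25 to 0.038 without each isotype library. For anti-IL-33 against isotype, range 2 gave -0.27 for Cftr and -0.099 for Slc12a2, which was from -0.018 to 0.16 without each isotype library. For anti-IL-33 against 15 weeks Scnn1a was 0.35 in range 2, 0.094 with 2 libraries left out and 0.080 without replicate 1 of 15 weeks, and Ano1 was -0.013 without it. For anti-IL-33 against saline Slc12a2 was 0.0062 with no filter. Number range 2 holds 1 isotype library and number range 1 holds 2 saline libraries, which limits those values.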
